A study of Homo sapiens with 8 samples.

Results

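K562 cells given 10 µM Lip-1 for 24 h were compared with untreated K562 cells across all expressed genes. The libraries were chosen by their treatment label alone: 3 of cells at 10 µM (replicates 2, 3 and 4, Day 1) and 4 of cells without Lip-1 (controls 1 to 4, Day 0), which is 7 of the 8 libraries of the series. The single 20 µM library was left out. K562 is an established human line from a chronic myeloid leukaemia that carries the BCR-ABL1 fusion and holds a partly erythroid state, and its genotype is labelled WT in both groups. The labels give the agent only as Lip-1, a name commonly used for liproxstatin-1, which is a radical-trapping inhibitor of lipid peroxidation and of the iron-dependent cell death called ferroptosis. Treatment and day coincide in every library, so effects of Lip-1 and of a further day in culture cannot be told apart. No vehicle is named for the controls. Nothing in the labels says that the libraries came from separate cultures, so p-values measure the spread between these libraries, which may be technical. Pyroptosis, apoptosis and arrest of the cell cycle are named in the series title.

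Several regulatory systems are described below. Cells hold sterol levels steady through SREBP2, a membrane-bound factor that is escorted by SCAP to the Golgi, cut there and released when membrane cholesterol is low, and that then switches on sterol synthesis. INSIG1 holds SCAP in the endoplasmic reticulum and is itself a target. NF-kB factors are kept in the cytoplasm by IkB proteins such as NFKBIA and switch on chemokines and their own inhibitors when released. Ribosomes are assembled in the nucleolus by a large set of processing factors around RNA made by RNA polymerase I, and growing leukaemia cells express this set at high levels.

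In all, 13197 genes had enough counts to be tested, of 19447 gene symbols in the table. At 10 µM, 3021 genes (22.9%) passed an adjusted p of 0.05 in edgeR's quasi-likelihood test with Benjamini-Hochberg adjustment over all genes tested, 1435 of them higher (10.9%) and 1586 lower (12.0%). Below, "rose" and "fell" are used for genes that passed, and every adjusted p is from this test. Counts for each gene list below are to be set beside the 10.9% and 12.0% of all genes. Rises were larger than falls. A 2-fold change was passed by 468 higher and 103 lower genes, and a 4-fold change by 110 higher and 11 lower genes. Genes that fell were more abundant, with a median log2 CPM of 6.48 against 4.80 for genes that rose and 4.82 over all genes tested. The genes that fell together took 314734 CPM in the controls and 210554 CPM at 10 µM, and the genes that rose took 59698 and 98749 CPM. When the test asked for a change beyond 1.5-fold, 178 genes (1.35%) were higher and 49 (0.371%) lower. Over all genes, 4761 (36.1%) had groups that did not overlap on plain CPM and 4609 (34.9%) on TMM-scaled CPM, and of the genes called 97.9% had groups that did not overlap on the latter scale. With the replicate number as a block, 2265 genes (17.2%) were higher and 2219 (16.8%) lower, and scaled by library totals alone 2172 were higher and 1057 lower. In the block fit control 1 shares its number with no 10 µM library, so it adds nothing to the contrast. Fewer genes passed without 10 µM replicate 3 (1485), 10 µM replicate 4 (1571) or control 3 (1832), and the median log2 fold change over all genes was 0.04 in the 7 libraries.

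**Figure D1:**
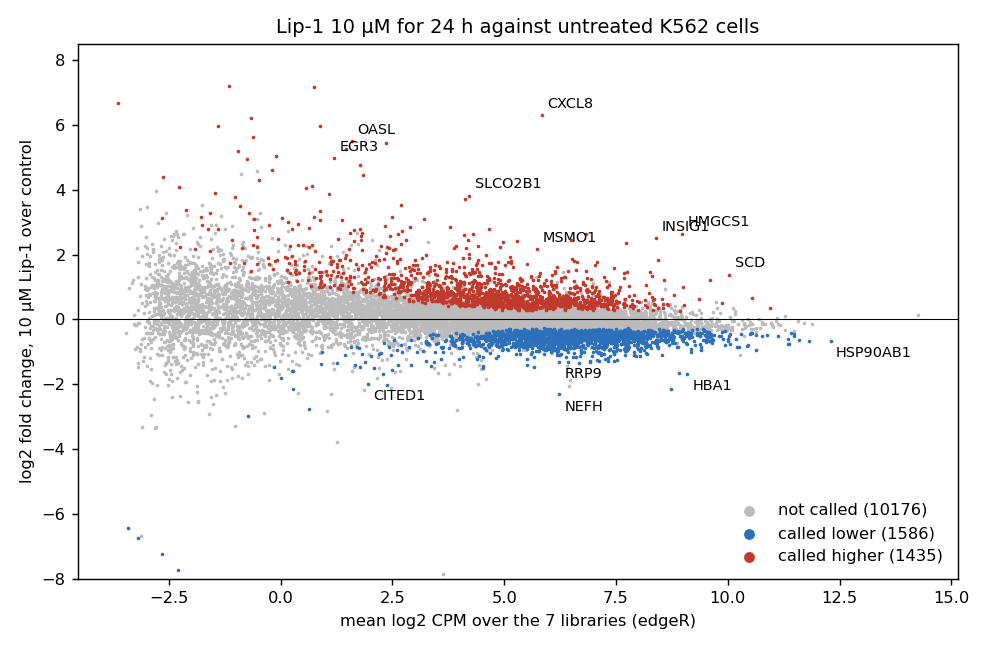
Mean log2 CPM over the 7 libraries against the log2 fold change of 10 µM Lip-1 over control, 1 point per gene, with 1435 genes called higher in red, 1586 called lower in blue and the rest in grey. The longest rises lie at low to middle levels and the falls at middle to high levels, and 2 genes lie outside the axis.

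Levels are given as CPM, a gene's count as a share of the library total scaled to the same size in every library, after TMM (trimmed mean of M values) scaling of that total. A number in parentheses after a gene that rose or fell is its log2 fold change. Library totals ran from 71151415 to 141307169 counts, TMM factors from 0.9206 to 0.9905 in the controls and from 1.025 to 1.108 at 10 µM. Without the TMM factors the median log2 change over all genes was 0.17 in place of 0.04, so small changes depend on the scaling. K562 identity was checked by markers. All 12 K562 markers were tested, and together they took 5478 to 8541 CPM in the controls and 4669 to 5269 CPM at 10 µM. Of them 1 rose and 4 fell, with a median log2 fold change of -0.67. The number that fell was 1 without 10 µM replicate 3, 2 without control 3 or 10 µM replicate 2 and 6 with the replicate block. This list includes the globins HBG1, HBG2 and HBZ, so its sum is not separate from the globin result below. Of 15 monocyte and granulocyte markers, 9 were under 1 CPM in all 7 libraries, among them MPO and CSF1R, and ELANE was at 0 in all 7. Of 16 lymphocyte markers, 12 were under 1 CPM in all 7 libraries, among them CD4, CD8A and MS4A1. Other members were expressed, and the lymphocyte list together took 216 to 322 CPM in the controls and 214 to 333 CPM at 10 µM. The monocyte and granulocyte list took 31.8 to 145 and 32.9 to 119 CPM. None of the tested genes of those 2 lists passed the test. Of 14 epithelial and fibroblast markers, 9 were under 1 CPM in all 7 libraries and 1 rose. That list took 126 to 180 CPM in the controls and 173 to 207 CPM at 10 µM.

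The sterol synthesis genes rose together. Of 20 genes of the mevalonate and sterol pathway, 17 rose and 0 fell, with a median log2 fold change of 1.26, against 10.9% of all genes called higher and an all-gene median of 0.04. HMGCS1 (chromosome 5, 43289395 to 43313512), which makes HMG-CoA at the head of the pathway, had 139.9, 152, 156 and 173 CPM in controls 1 to 4 and 1189, 755 and 974 CPM in 10 µM replicates 2 to 4. Each 10 µM library lay at least 4 times above the highest control, and the log2 fold change was 2.65 (SE 0.155, adjusted p = 0.000141). MSMO1, a sterol demethylase late in the pathway (chromosome 4, 165327623 to 165343160), had 20.1, 24.2, 18.7 and 22.5 CPM in controls 1 to 4 and 91.7, 94.3 and 103 CPM in 10 µM replicates 2 to 4. Its groups were also far apart, with a log2 fold change of 2.17 (SE 0.114, adjusted p = 0.000141). FDFT1, which makes squalene (chromosome 8, 11795573 to 11839309), had 181, 212, 210.0 and 156 CPM in controls 1 to 4 and 558, 472 and 412 CPM in 10 µM replicates 2 to 4, and its log2 fold change was 1.34 (SE 0.143, adjusted p = 0.00102). Other steps moved by similar amounts: the isomerase IDI1 (1.79), the epoxidase SQLE (1.23), the cyclase LSS (1.45), the demethylase CYP51A1 (1.30) and the last-step reductase DHCR7 (0.91). The 3 genes that did not pass were EBP, at 0.40 (adjusted p = 0.0798, 0.0239 with the replicate block), NSDHL, at 0.35 (adjusted p = 0.0681), and PMVK, at -0.07 (adjusted p = 0.731). IDI1 was the 1 called gene of the list whose groups overlapped. With 1 library left out, the adjusted p passed 0.05 for IDI1 without controls 1, 3 or 4 or 10 µM replicates 3 or 4 (up to 0.143).

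The regulators of the same pathway and of LDL uptake rose as well. Of 16 genes, 9 rose and 0 fell, with a median log2 fold change of 0.39. INSIG1 (chromosome 7, 155297776 to 155310235) had 90.7, 135, 125 and 93 CPM in controls 1 to 4 and 635, 666 and 597 CPM in 10 µM replicates 2 to 4. The groups were separate and the log2 fold change was 2.51 (SE 0.157, adjusted p = 0.000141). The sterol carrier STARD4 rose by 1.85. SREBF2 (chromosome 22, 41833079 to 41907308), which encodes SREBP2, had 138, 137, 145 and 139 CPM in controls 1 to 4 and 263, 243 and 238 CPM in 10 µM replicates 2 to 4, all 10 µM libraries above all controls, and rose by 0.82 (SE 0.084, adjusted p = 0.000822). Its paralogue SREBF1 was at 0.27 (adjusted p = 0.148, 0.0424 with the replicate block) and the escort SCAP at -0.22 (adjusted p = 0.267). The export side was covered by a separate list. Of 10 genes of sterol efflux and LXR targets, 1 rose and 0 fell, with a median log2 fold change of 0.18, and 10.9% of all genes rose. The number that rose was 2 without control 1, by DESeq2 or with upper quartile scaling, 3 on library totals alone and 3 with the replicate block, where 1 also fell. The exporter ABCA1 was too low to test, between 0 and 0.129 CPM in the controls and between 0.027 and 0.4499 CPM at 10 µM.

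Upstream sequence was read for the sterol genes because so many of them moved together. RefSeq windows of 250 bases before the RefSeq start (GRCh38.p14) were found for 10571 of the 13197 genes, and motifs were searched on both strands. The CCAAT box, which NF-Y binds beside SREBP sites, was found in 12 of 15 sterol synthesis windows (80.0%) and in 35.1% of all 10571. It was also in 20 of 24 windows of endoplasmic reticulum folding genes (83.3%), 31 of 38 histone windows (81.6%) and 23 of 29 windows of mitotic genes (79.3%). The sterol regulatory element TCACNCCAC was in 0 of those 15 windows, in 83 of all windows (0.785%), and in the window of SREBF2. The stretches below show CCAAT or its reverse ATTGG in capitals for MSMO1 (chr4:165327469-165327648, plus strand) and HMGCS1 (chr5:43313493-43313582, minus strand), and the sterol element in capitals for SREBF2 (chr22:41832945-41833004, plus strand), each 5′ to 3′ along the gene.
MSMO1: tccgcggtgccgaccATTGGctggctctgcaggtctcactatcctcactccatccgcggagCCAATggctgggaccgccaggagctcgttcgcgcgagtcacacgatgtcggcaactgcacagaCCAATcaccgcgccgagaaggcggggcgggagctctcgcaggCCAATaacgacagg
HMGCS1: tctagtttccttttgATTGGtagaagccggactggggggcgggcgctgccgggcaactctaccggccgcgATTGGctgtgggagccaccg
SREBF2: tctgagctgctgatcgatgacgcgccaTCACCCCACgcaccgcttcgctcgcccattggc
MSMO1 carries 4 such boxes in the stretch and HMGCS1 carries 2. A match is a run of letters and was not tested for binding.

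Fatty acid synthesis, which shares SREBP control, rose in part. Of 18 genes, 7 rose and 0 fell, with a median log2 fold change of 0.40. The desaturase SCD (chromosome 10, 100347124 to 100364834), which makes monounsaturated fatty acids, had 469, 738, 703 and 561 CPM in controls 1 to 4 and 1687, 1595 and 1568 CPM in 10 µM replicates 2 to 4. It was among the 10 largest rises in mean CPM of all genes called and rose by 1.39 (SE 0.153, adjusted p = 0.00112). The acetyl-CoA synthetase ACSS2 (1.79), the desaturase FADS1 (1.21), the elongase ELOVL6 (0.93) and the synthase FASN (0.67) rose too. ACSL4, which loads polyunsaturated fatty acids for phospholipids and is a known determinant of ferroptosis, rose by 1.18 (SE 0.162, adjusted p = 0.00254). The carboxylase ACACA was at 0.21 (adjusted p = 0.345). Among fatty acid genes, 11 rose with the replicate block, and the count was 11 on library totals alone. The adjusted p went over 0.05 for FASN without 10 µM replicate 3 (up to 0.0573).

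**Figure D2:**
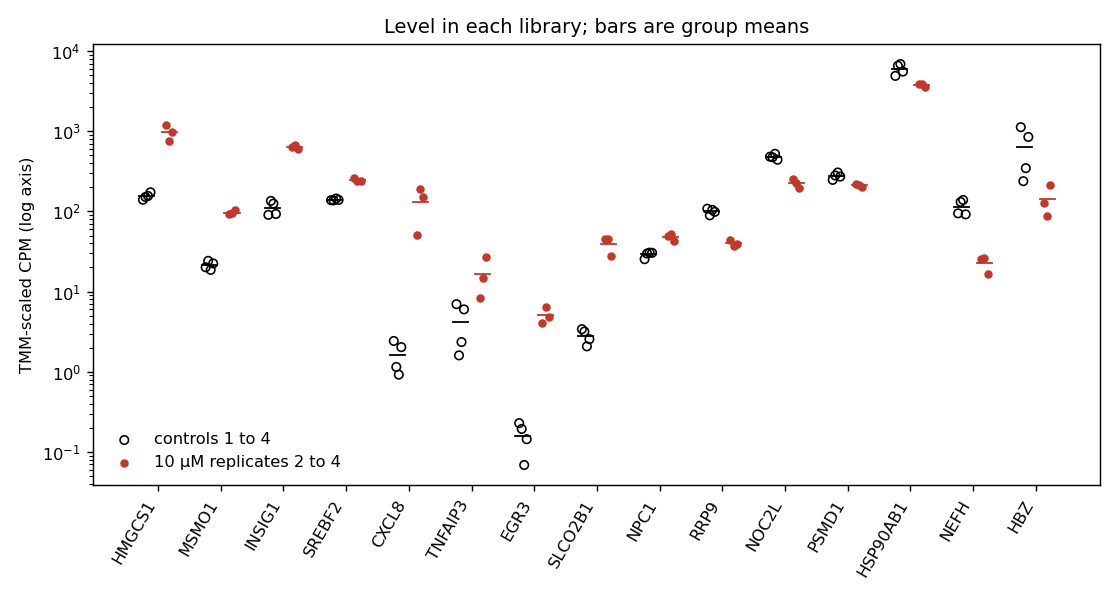
TMM-scaled CPM in each library on a log axis for 15 genes, with controls 1 to 4 as open circles, 10 µM replicates 2 to 4 as red dots and group means as bars. The 10 µM dots lie above all controls for HMGCS1 to NPC1 and below all controls for RRP9 to HBZ.

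Lysosomal genes shifted upward by smaller amounts. Of 37 lysosomal hydrolases and membrane proteins, 14 rose and 1 fell, with a median log2 fold change of 0.45. The cholesterol exporters of the lysosome both rose. NPC1 (chromosome 18, 23506184 to 23586898) had 25.4, 29.8, 30.7 and 30.5 CPM in controls 1 to 4 and 50.0, 51.6 and 42.8 CPM in 10 µM replicates 2 to 4, with a log2 fold change of 0.73 (SE 0.112, adjusted p = 0.00378), and NPC2 rose by 1.80 (SE 0.235, adjusted p = 0.00217). The sialidase NEU1 (1.5), the peptidase TPP1 (0.99) and the membrane protein LAMP2 (0.72) rose, while the cathepsin CTSZ (-0.56) fell. Of 16 subunits of the vacuolar proton pump, 7 rose and 1 fell, with a median log2 fold change of 0.33. Lysosomal genes rising numbered 4 without 10 µM replicate 4, 6 without control 2 or control 3, 9 without control 4 or 10 µM replicate 3 and 28 with the replicate block. Counts of rising proton pump genes were 3 without 10 µM replicate 3 or 10 µM replicate 4 and 4 without control 4. Leaving out 1 library took the adjusted p over 0.05 for TPP1 without control 2 or 10 µM replicate 4 (up to 0.0765), LAMP2 without control 3 or 10 µM replicates 3 or 4 (up to 0.074) and CTSZ without controls 3 or 4 or 10 µM replicates 3 or 4 (up to 0.0919).

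Many autophagy genes rose. Of 40 genes for autophagy machinery and receptors, 22 rose and 2 fell, with a median log2 fold change of 0.43. The cargo receptor SQSTM1 (chromosome 5, 179806398 to 179838078) had 200.3, 141, 135 and 185 CPM in controls 1 to 4 and 503, 604 and 657 CPM in 10 µM replicates 2 to 4. Every 10 µM library lay above every control, and the log2 fold change was 1.83 (SE 0.163, adjusted p = 0.000605). The receptors OPTN (1.61) and NBR1 (0.96), the membrane markers MAP1LC3B (0.99) and GABARAPL1 (0.99), the initiation subunits RB1CC1 (1.19) and ULK1 (0.94), and the lysosomal signalling genes RRAGD (1.68), FLCN (0.85) and FNIP2 (0.93) rose. ATG16L1 and ATG3, which act in lipid conjugation of LC3, fell by 0.59 and 0.36 on the log2 scale. TFE3, a regulator of lysosomal genes, rose by 0.43. The CLEAR element TCACGTGA, which TFE3 and TFEB bind, was in 4 of 25 lysosomal windows (16%), 0 of 36 autophagy windows and 1.61% of all windows. Of those 4 genes CTSA rose, by 0.43, and the stretch with its element in capitals (chr20:45891275-45891334, plus strand) is shown.
CTSA: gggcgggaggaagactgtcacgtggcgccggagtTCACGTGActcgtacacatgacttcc
Calls were lost, with the adjusted p over 0.05, for ULK1 without control 3 or 10 µM replicate 4 (up to 0.0863), ATG3 without controls 2 or 3 or 10 µM replicates 3 or 4 (up to 0.0581), TFE3 without controls 2 or 3 or 10 µM replicates 2, 3 or 4 (up to 0.141) and CTSA without controls 2, 3 or 4 or 10 µM replicates 2 or 4 (up to 0.154).

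Among genes whose mean log2 CPM reached 1, the largest rise was in CXCL8, the neutrophil chemokine (chromosome 4, 73740506 to 73743716), with 2.42, 1.15, 0.921 and 2.03 CPM in controls 1 to 4 and 50.9, 193 and 153 CPM in 10 µM replicates 2 to 4. The 10 µM libraries differed among themselves by more than 3-fold but all lay far above the controls, and the log2 fold change was 6.31 (SE 0.52, adjusted p = 0.000502). Of 20 cytokine and chemokine genes, 9 rose and 0 fell, with a median log2 fold change of 2.19. The number of cytokine genes that rose was 16 with the replicate block. Levels stayed low for most. CXCL2 (chromosome 4, 74097035 to 74099293) had 2.95, 1.27, 0.976 and 2.88 CPM in controls 1 to 4 and 3.17, 6.52 and 11.1 CPM in 10 µM replicates 2 to 4, and IL6 (chromosome 7, 22725884 to 22732002) had 3.11, 1.45, 1.57 and 2.5 CPM in controls 1 to 4 and 7.17, 8.49 and 11.2 CPM in 10 µM replicates 2 to 4. Both were higher in all 10 µM libraries than in all controls, with log2 fold changes of 1.78 (SE 0.51, adjusted p = 0.0359) and 2.05 (SE 0.318, adjusted p = 0.00385). CXCL3 rose by 1.85, and CSF1, a macrophage factor, by 1.73. The interferon-induced CXCL10 had 0.0357, 0, 0 and 0.0554 CPM in controls 1 to 4 and 0.229, 0.382 and 10.9 CPM in 10 µM replicates 2 to 4, and no fold change is given because its controls held few counts. AREG, a ligand of the EGF receptor, rose by 2.20 (SE 0.138, adjusted p = 0.000141). The list's median difference from the control mean was 1.97, 2.34 and 2.60 in 10 µM replicates 2, 3 and 4. In controls 1 to 4 it was 0.64, -0.42, -0.42 and 0.01. An adjusted p over 0.05 was reached by CXCL2 without controls 2 or 3 or 10 µM replicates 3 or 4 (up to 0.149) and CXCL10 without 10 µM replicate 4 (up to 0.122).

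NF-kB feedback genes rose beside them. Of 20 NF-kB subunits and inhibitors, 8 rose and 1 fell, with a median log2 fold change of 0.34. The deubiquitinase TNFAIP3 (chromosome 6, 137867188 to 137883312), an inhibitor of the pathway, had 6.97, 1.6, 2.35 and 6 CPM in controls 1 to 4 and 8.35, 14.7 and 27.1 CPM in 10 µM replicates 2 to 4. Controls 1 and 4 were higher than controls 2 and 3, the groups did not overlap, and the log2 fold change was 1.98 (SE 0.549, adjusted p = 0.0322). NFKBIA, which encodes IkB alpha, rose by 1.27 (SE 0.139, adjusted p = 0.00112). The subunits RELB (2.58) and NFKB2 (1.19) rose, as did the adaptor TRAF1 (4.31) and the ubiquitin ligase BIRC3 (2.67). Among NF-kB genes, 5 rose without 10 µM replicate 4. With 1 library left out, the adjusted p passed 0.05 for TNFAIP3 without controls 2 or 3 or 10 µM replicates 3 or 4 (up to 0.129), RELB without 10 µM replicate 4 (up to 0.0645) and TRAF1 without control 2 or 10 µM replicates 2, 3 or 4 (up to 0.0953).

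The NF-kB site GGANTTTCC was in 7 of 14 cytokine and chemokine windows (50.0%), 5 of 17 windows of NF-kB subunits and inhibitors (29.4%), 1.43% of all windows, 2.65% of windows of genes called higher and 1.14% of those called lower. Stretches are shown for 5 genes that rose, with the site in capitals and, for CXCL8, also the AP-1 site TGACTCA, each 5′ to 3′ along the gene. They lie at chr4:73740419-73740508 (plus strand), chr4:74099246-74099305 (minus), chr4:74038740-74038799 (minus), chr7:22727090-22727149 (plus) and chr14:35404800-35404859 (minus).
CXCL8: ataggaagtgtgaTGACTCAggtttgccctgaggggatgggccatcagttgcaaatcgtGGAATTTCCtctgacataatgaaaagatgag
CXCL2: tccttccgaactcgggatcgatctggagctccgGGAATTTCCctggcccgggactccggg
CXCL3: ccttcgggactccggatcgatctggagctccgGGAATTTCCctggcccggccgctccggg
IL6: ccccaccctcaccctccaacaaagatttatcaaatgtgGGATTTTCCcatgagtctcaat
NFKBIA: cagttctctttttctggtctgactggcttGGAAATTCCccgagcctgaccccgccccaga
CXCL1, CXCL2 and CXCL3 are close paralogues, and counting could split reads among them. CXCL1, which has the site as well, was at 1.88 (adjusted p = 0.347, 0.0263 with the replicate block).

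Interferon-stimulated genes rose in part and unevenly. Of 24 genes tested, 8 rose and 0 fell, with a median log2 fold change of 0.76. OASL (chromosome 12, 121019111 to 121039242), a sensor-pathway gene, had 0.4, 0, 0 and 0.155 CPM in controls 1 to 4 and 2.4, 1.95 and 16.2 CPM in 10 µM replicates 2 to 4. The controls were all under 1 CPM, 10 µM replicate 4 was the highest, and the log2 fold change was 5.50 (SE 1.29, adjusted p = 0.0174). Controls 2 and 3 were at 0, so the size of that fold change is uncertain. IFIT1, which binds viral RNA caps, had 0.614, 0.194, 0.165 and 0.233 CPM in controls 1 to 4 and 2.64, 2.06 and 8.77 CPM in 10 µM replicates 2 to 4, and rose by 3.87 (SE 0.664, adjusted p = 0.00565). IFIT2 rose by 4.77, IFIT3 by 2.85 and ISG15 by 1.33. The factors STAT2 (0.65) and IRF9 (0.61), which carry the interferon signal, rose. List medians against the control mean were 0.77, 0.54 and 1.57 in 10 µM replicates 2 to 4, and control 4 was itself at 0.39 and control 1 at 1.03. Interferon genes rising numbered 3 without 10 µM replicate 4, 5 without control 2 and 15 with the replicate block. The adjusted p went over 0.05 for OASL without 10 µM replicate 4 (up to 0.0942), IFIT2 without controls 2, 3 or 4 or 10 µM replicate 4 (up to 0.303), STAT2 without control 2 or 10 µM replicates 3 or 4 (up to 0.0992) and IRF9 without controls 2, 3 or 4 or 10 µM replicates 2, 3 or 4 (up to 0.121).

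**Figure D3:**
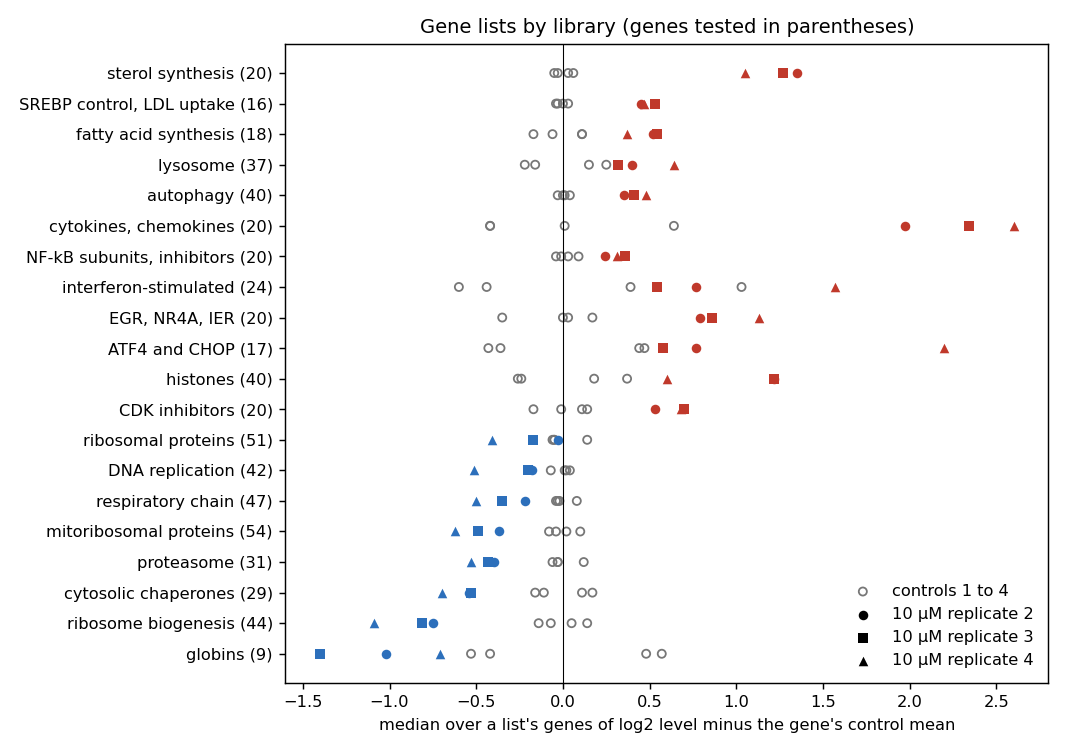
For 20 gene lists, the median over genes of a library's log2 level minus the gene's control mean, with controls as open circles and the 3 libraries at 10 µM as filled symbols. Sterol synthesis lies at 1.05 to 1.35 and ribosome biogenesis at -1.09 to -0.75 in the 10 µM libraries. The lists for interferon, cytokines, ATF4 and globins spread widely among controls.

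Early response genes, which are switched on within minutes of growth factor or stress signals, rose in part. Of 20 genes of the EGR, NR4A and IER families, 11 rose and 0 fell, with a median log2 fold change of 0.74. EGR3 (chromosome 8, 22687659 to 22693302), a zinc finger factor, had 0.229, 0.194, 0.0687 and 0.144 CPM in controls 1 to 4 and 4.09, 6.52 and 4.81 CPM in 10 µM replicates 2 to 4. It was barely detected in the controls and rose by 4.98 (SE 0.435, adjusted p = 0.000526). EGR2 rose by 2.76, the orphan receptor NR4A1 by 2.67 and PHLDA1 by 3.73. EGR1 (chromosome 5, 138465490 to 138469315) had 136, 414, 318 and 124 CPM in controls 1 to 4 and 415, 388 and 286 CPM in 10 µM replicates 2 to 4. Its groups overlapped, at 0.55 (adjusted p = 0.357). Of 13 AP-1 factors, 3 rose and 0 fell, with a median log2 fold change of 0.47, the risers being ATF3 (2.63), MAFF (1.64) and JUN (1.5). FOS was at 0.47 (adjusted p = 0.345). Of 19 MAP kinase phosphatases and Sprouty genes, which dampen MAP kinase signalling, 6 rose and 1 fell, with a median log2 fold change of 0.44. DUSP5 (1.63), DUSP1 (1.13), DUSP10 (1.37) and SPRY4 (0.95) rose and DUSP7 (-0.73) fell. KLF6, a zinc finger factor, was among the 10 genes with the smallest p and rose by 2.65 (SE 0.197, adjusted p = 0.00036). The count of rising early response genes was 4 without 10 µM replicate 3 or 10 µM replicate 4. The number of AP-1 genes that rose was 6 with the replicate block and 5 by DESeq2. Among phosphatase and Sprouty genes, 11 rose with the replicate block. Leaving out 1 library took the adjusted p over 0.05 for JUN without 10 µM replicate 3 (up to 0.0518) and DUSP10 without control 2 or 10 µM replicates 3 or 4 (up to 0.0851).

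ATF4 and CHOP drive the response to amino acid shortage and to stress of the endoplasmic reticulum. Of 17 genes of this group, 9 rose and 0 fell, with a median log2 fold change of 1.06. DDIT3, which encodes CHOP (chromosome 12, 57516588 to 57521737), had 24.5, 9.68, 10.8 and 22.1 CPM in controls 1 to 4 and 46.9, 40.6 and 84.4 CPM in 10 µM replicates 2 to 4. It was highest in 10 µM replicate 4 and rose by 1.77 (SE 0.373, adjusted p = 0.0116). ATF3 had 9.92, 3.25, 3.54 and 7.5 CPM in controls 1 to 4 and 19.7, 35.8 and 57.6 CPM in 10 µM replicates 2 to 4, again highest in replicate 4. The kinase-like inhibitor TRIB3 (1.06), the secreted factor GDF15 (2.46) and CREBRF (2.26) rose, and ATF4 itself rose by 0.34 (SE 0.092, adjusted p = 0.0284). The list's median against the control mean was 2.20 in 10 µM replicate 4 and 0.77 and 0.58 in replicates 2 and 3. Controls 1 to 4 were themselves at 0.47, -0.43, -0.36 and 0.44, so replicate 3 lay little above controls 1 and 4. Genes of this group that rose numbered 6 without 10 µM replicate 4 and 13 with the replicate block. Of 25 folding genes of the endoplasmic reticulum, 4 rose and 4 fell, with a median log2 fold change of -0.01, a median that was positive with upper quartile scaling (0.05), on library totals alone (0.12) and in the libraries named by letters alone (0.09), which are controls 1 and 4 and 10 µM replicate 4. The calreticulin gene CALR (-0.40) and PDIA4 (-0.41) fell, HERPUD1 (1.13) and EDEM1 (0.75) of the degradation pathway rose, and the chaperone HSPA5 was at 0.13 (adjusted p = 0.6). Folding genes rising numbered 2 without control 3 or 10 µM replicate 4 and 7 on library totals alone. Counts of falling folding genes were 1 without 10 µM replicate 3 or 10 µM replicate 4 and 2 without control 3. Calls were lost, with the adjusted p over 0.05, for ATF4 without controls 2 or 4 or 10 µM replicates 2, 3 or 4 (up to 0.0858), CALR without controls 2, 3 or 4 or 10 µM replicates 3 or 4 (up to 0.111), PDIA4 without 10 µM replicates 3 or 4 (up to 0.0601) and EDEM1 without control 3 or 10 µM replicate 4 (up to 0.0639).

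Amino acid and serine genes moved both ways. SLC7A11 (chromosome 4, 138164097 to 138242349), the cystine importer that feeds glutathione synthesis, had 25.2, 25, 16.1 and 27 CPM in controls 1 to 4 and 47.9, 73.1 and 106 CPM in 10 µM replicates 2 to 4. All 10 µM libraries were above all controls, and it rose by 1.70 (SE 0.263, adjusted p = 0.00384). SLC38A2, a glutamine transporter, rose by 1.45. Of 14 amino acid transporters, 5 rose and 1 fell, with a median log2 fold change of 0.30. Of 19 one-carbon and serine enzymes, 6 rose and 5 fell, with a median log2 fold change of -0.23. Asparagine synthetase ASNS (1.08), cystathionine lyase CTH (1.23) and ALDH1L2 (1.76) rose. The folate enzymes MTHFD1 (-0.68) and MTHFD1L (-0.55) and the proline enzymes ALDH18A1 (-0.66) and PYCR1 (-0.49) fell. The number of transporter genes that rose was 2 without control 1, control 3, 10 µM replicate 3 or 10 µM replicate 4 and 3 without control 2, control 4 or 10 µM replicate 2. Among one-carbon genes, 3 rose without 10 µM replicate 4. One-carbon genes falling numbered 1 without control 2, control 3, 10 µM replicate 3 or 10 µM replicate 4 and 8 by DESeq2. An adjusted p over 0.05 was reached by ALDH1L2 without controls 2 or 3 or 10 µM replicates 2, 3 or 4 (up to 0.126), MTHFD1L without controls 2 or 3 or 10 µM replicates 3 or 4 (up to 0.0795), ALDH18A1 without controls 2 or 3 or 10 µM replicates 3 or 4 (up to 0.0659) and PYCR1 without controls 2 or 3 or 10 µM replicates 3 or 4 (up to 0.0974).

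Ribosome biogenesis genes fell almost throughout. Of 44 processing and assembly factors, 0 rose and 42 fell, with a median log2 fold change of -0.86, against 12.0% of all genes called lower. RRP9 (chromosome 3, 51933430 to 51941941), a protein of the U3 particle that processes pre-rRNA, had 108, 89.5, 105 and 98.9 CPM in controls 1 to 4 and 44.4, 37.3 and 39.7 CPM in 10 µM replicates 2 to 4. Every 10 µM library lay below every control, and the log2 fold change was -1.31 (SE 0.11, adjusted p = 0.000502). NOC2L (chromosome 1, 944204 to 959309), a nucleolar protein, had 482, 475, 524 and 442 CPM in controls 1 to 4 and 253, 226 and 194 CPM in 10 µM replicates 2 to 4, with a log2 fold change of -1.10 (SE 0.116, adjusted p = 0.000989). PES1 (chromosome 22, 30576625 to 30607083), a scaffold of the large subunit's assembly, had 218, 216, 239 and 216 CPM in controls 1 to 4 and 125, 113 and 94.9 CPM in 10 µM replicates 2 to 4, and its log2 fold change was -1.0 (SE 0.113, adjusted p = 0.00122). NCL (-0.94), which encodes the abundant nucleolar protein nucleolin, fell, as did FBL (-0.73), which encodes fibrillarin, the methyltransferase of the box C/D particles. The 2 genes that did not pass were WDR12, at -0.39 (adjusted p = 0.0594, 0.00677 with the replicate block), and PPAN, at -0.68 (adjusted p = 0.296, 0.00108 with the replicate block). PPAN had 31.7 CPM in control 1, which the block sets aside, and 131 to 140.3 CPM in the other controls. The -0.68 is from the fit that uses control 1, so the adjusted p with the block does not belong to that size.

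RNA polymerase I subunits and factors fell in part. Of 15 genes, 0 rose and 8 fell, with a median log2 fold change of -0.45. The subunit POLR1B (chromosome 2, 112541915 to 112577150) had 119, 159, 155 and 128 CPM in controls 1 to 4 and 96, 94.4 and 65.4 CPM in 10 µM replicates 2 to 4, with the 2 groups apart and a log2 fold change of -0.72 (SE 0.165, adjusted p = 0.0165). CD3EAP (-1.48), POLR1E (-0.85) and POLR1A (-0.75) also fell. Of 51 cytosolic ribosomal protein genes, 0 rose and 6 fell, with a median log2 fold change of -0.20, and 12.0% of all genes fell. Counts of falling ribosomal protein genes were 0 without control 3, 10 µM replicate 3 or 10 µM replicate 4, 1 without control 2 or control 4, 11 without 10 µM replicate 2, 18 with the replicate block, 2 on library totals alone, 3 with upper quartile scaling and 11 by DESeq2. Many mitochondrial ribosomal proteins fell: of 54 genes, 0 rose and 36 fell, with a median log2 fold change of -0.50, among them MRPS17 (-0.84), MRPL12 (-0.87) and MRPS34 (-0.85). Of 41 translation factors, 1 rose and 18 fell, with a median log2 fold change of -0.32. Subunits EIF3B (-0.77) and EIF3G (-0.81) and the helicase EIF4A1 (-0.68) fell. The number of polymerase I genes that fell was 5 without 10 µM replicate 4. Among mitoribosomal genes, 23 fell without 10 µM replicate 4.

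The ETS motif CCGGAAG, bound by GABPA and related factors, was in 14 of 38 ribosome biogenesis windows (36.8%), 13 of 49 windows of mitochondrial ribosomal proteins (26.5%), 24.8% of windows of genes called lower, 12.9% of those called higher and 15.6% of all. It was also in 7 of 16 windows of aminoacyl tRNA synthetases (43.8%), of which 3 of 20 genes rose and 6 fell with a median log2 fold change of -0.09, and in 12 of 40 windows of cytosolic ribosomal proteins (30.0%). Stretches are shown for 3 genes that fell, TSR1 (-0.92), NOP16 (-1.14) and MRPS34 (-0.85), with CCGGAAG or its reverse CTTCCGG in capitals, at chr17:2336458-2336517, chr5:176388599-176388658 and chr16:1773135-1773224 (minus strand in each).
TSR1: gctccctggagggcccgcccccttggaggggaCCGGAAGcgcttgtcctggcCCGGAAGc
NOP16: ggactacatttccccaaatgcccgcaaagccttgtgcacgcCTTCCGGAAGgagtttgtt
MRPS34: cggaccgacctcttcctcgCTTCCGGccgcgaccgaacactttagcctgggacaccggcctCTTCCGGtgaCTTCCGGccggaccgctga
In NOP16 the forward and reverse motifs overlap.

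**Figure D4:**
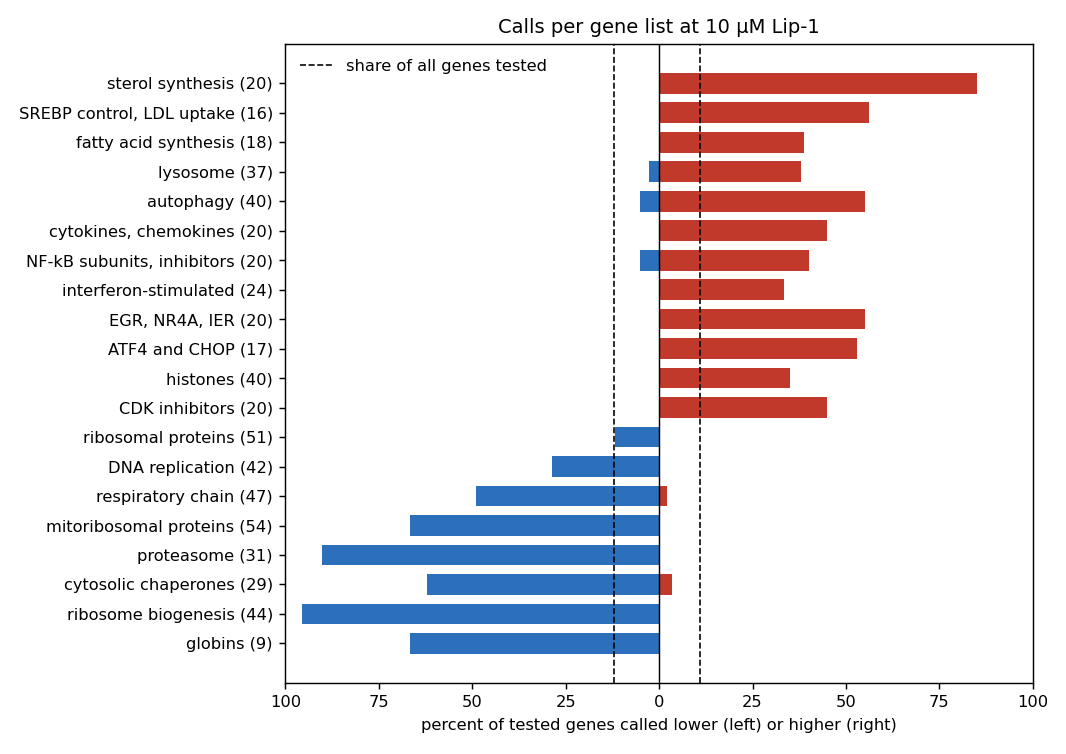
Share of each list's tested genes called higher (red, right) or lower (blue, left) at 10 µM, with the shares over all genes tested, 10.9% and 12.0%, as dashed lines. Ribosome biogenesis and proteasome subunits extend farthest to the left and sterol synthesis farthest to the right, and cytosolic ribosomal proteins end near the dashed line.

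Protein quality control genes fell. Of 31 proteasome subunits, 0 rose and 28 fell, with a median log2 fold change of -0.47, a narrow range of small changes. PSMC5, an ATPase of the regulatory particle (chromosome 17, 63827152 to 63832026), had 253, 229, 262 and 248 CPM in controls 1 to 4 and 170.0, 163 and 158 CPM in 10 µM replicates 2 to 4. The groups were apart and the log2 fold change was -0.60 (SE 0.089, adjusted p = 0.00334). Of 29 cytosolic and mitochondrial chaperones, 1 rose and 18 fell, with a median log2 fold change of -0.60. Subunits of the TRiC chaperonin fell together, such as TCP1 (-0.94), CCT5 (-0.75) and CCT7 (-0.62), and so did the mitochondrial pair HSPE1 (-1.08) and HSPD1 (-0.85). HSP90AB1 (chromosome 6, 44246166 to 44253888) had 4910.3, 6571, 6901 and 5558 CPM in controls 1 to 4 and 3889.7, 3931 and 3545 CPM in 10 µM replicates 2 to 4, the largest fall in mean CPM of all genes called, and its log2 fold change was -0.66 (SE 0.127, adjusted p = 0.00826). The heat-inducible HSPA1A was at -2.04 (adjusted p = 0.0965, 0.00529 with the replicate block). It had 372 CPM in control 1, which the block sets aside, and 35.5 to 55.5 CPM in the other controls. The -2.04 is from the fit that uses control 1, so the adjusted p with the block does not belong to that size. Of 26 nucleotide synthesis genes, 0 rose and 16 fell, with a median log2 fold change of -0.49. The purine enzymes ADSL (-0.86) and PFAS (-0.82) and the pyrimidine enzymes DHODH (-1.02) and CAD (-0.65) fell. MYC (chromosome 8, 127735434 to 127741434), which is known to drive these programmes, had 259.7, 315, 323 and 257 CPM in controls 1 to 4 and 242, 226 and 189 CPM in 10 µM replicates 2 to 4, and was at -0.40 (adjusted p = 0.0541, 0.00693 with the replicate block). Of 12 genes of the MYC network, 4 rose and 1 fell, with a median log2 fold change of 0.18. The MYC antagonists MXD1 (1.28) and MXD4 (1.01) were among those that rose. In this list 2 rose without 10 µM replicate 4, and 2 fell with the replicate block, by DESeq2 or without control 1. Whether MYC had a part in the falls above was not tested. Proteasome genes falling numbered 14 without 10 µM replicate 3, 15 without 10 µM replicate 4, 17 without control 3 and 18 without control 4. The count of falling nucleotide genes was 10 without control 3 or 10 µM replicate 4. With 1 library left out, the adjusted p passed 0.05 for MXD4 without 10 µM replicate 4 (up to 0.0645).

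Cell cycle genes were split. CDKN1A (chromosome 6, 36676460 to 36687339), which encodes the CDK inhibitor p21, had 17.4, 5.29, 5.67 and 15.9 CPM in controls 1 to 4 and 44.5, 51.7 and 79.3 CPM in 10 µM replicates 2 to 4. All 10 µM libraries were above all controls, and it rose by 2.40 (SE 0.441, adjusted p = 0.00722). Of 20 CDK inhibitors and antiproliferative genes, 9 rose and 0 fell, with a median log2 fold change of 0.70, among them CCNG2 (2.63), BTG2 (1.76) and RBL2 (0.66). K562 is known to lack working p53. Of 23 genes listed as p53 targets, 10 rose and 2 fell, with a median log2 fold change of 0.55, against 10.9% of all genes called higher. MDM2, a core target and 1 of those that did not pass, was at 0.12 (adjusted p = 0.463). What moved these genes was not tested. Of 36 genes of G2 and mitosis, 1 rose and 8 fell, with a median log2 fold change of -0.24. CDC20 (-0.88), PLK1 (-0.91) and CCNB1 (-0.74) fell, while CDK1 (chromosome 10, 60778331 to 60794852) had 162, 212, 208 and 184 CPM in controls 1 to 4 and 158, 190.2 and 173 CPM in 10 µM replicates 2 to 4, with overlapping groups, at -0.14 (adjusted p = 0.441). Of 42 DNA replication genes, 0 rose and 12 fell, with a median log2 fold change of -0.28, with the helicase subunits MCM2 (-0.57), MCM3 (-0.56) and MCM7 (-0.41) among the fallers. CCND1 (chromosome 11, 69641087 to 69654474), a G1 cyclin, had 75.4, 95.3, 85.5 and 69.4 CPM in controls 1 to 4 and 85.2, 92.7 and 101 CPM in 10 µM replicates 2 to 4, at 0.19 (adjusted p = 0.312), and the phosphatase CDC25A (-0.75) fell. The number of CDK inhibitor genes that rose was 5 without 10 µM replicate 3 or 10 µM replicate 4. Among p53 target genes, 6 rose without 10 µM replicate 3 or 10 µM replicate 4. Mitotic genes falling numbered 1 without 10 µM replicate 3, 2 without 10 µM replicate 4, 3 without control 2 or control 3, 5 without control 4, 18 with the replicate block, 3 on library totals alone and 5 with upper quartile scaling. Counts of falling replication genes were 4 without 10 µM replicate 4, 5 without control 3 or 10 µM replicate 3, 6 without control 4, 6 on library totals alone and 19 by DESeq2. The adjusted p went over 0.05 for BTG2 without 10 µM replicates 3 or 4 (up to 0.0701), PLK1 without 10 µM replicates 3 or 4 (up to 0.0578), CCNB1 without 10 µM replicate 3 (up to 0.0588) and MCM2 without 10 µM replicate 3 (up to 0.0554). The same held for MCM7 without controls 2, 3 or 4 or 10 µM replicates 3 or 4 (up to 0.111).

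Histone genes went the other way. Of 40 replication-dependent histones, 14 rose and 0 fell, with a median log2 fold change of 0.99, with H2BC5 (1.04), H3C10 (1.46) and H4C8 (1.41) among those that rose. These transcripts normally end without a poly(A) tail, and these libraries were made from rRNA-depleted RNA with random primers. Many histone genes are near-identical copies, so the counts of single members are uncertain. The number of histone genes that rose was 22 with the replicate block.

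Among the cell death groups, several pro-apoptotic BH3 genes rose. BBC3 (chromosome 19, 47220822 to 47232766), which encodes PUMA, had 4.92, 4.92, 9.74 and 9.19 CPM in controls 1 to 4 and 44.2, 46.5 and 57.4 CPM in 10 µM replicates 2 to 4. The groups were apart and it rose by 2.78 (SE 0.271, adjusted p = 0.000786). BMF (2.30) and PMAIP1 (1.21) rose too, while the effector BAX was at 0.18 (adjusted p = 0.391). Of 13 pro-apoptotic BCL2 family genes, 6 rose and 2 fell, with a median log2 fold change of 0.48. Of 10 anti-apoptotic genes, 4 rose and 1 fell, with a median log2 fold change of 0.48, including XIAP (0.81). Of 16 caspase and apoptosome genes, 4 rose and 5 fell, with a median log2 fold change of -0.12. APAF1 (0.84) and CASP9 (0.49) rose and HTRA2 (-0.51) and CYCS (-0.48) fell. The sign of that list's median turned when libraries were scaled by totals alone. Among pro-apoptotic genes, 3 rose without control 2 or 10 µM replicate 3. Anti-apoptotic genes rising numbered 2 without 10 µM replicate 4. The count of rising caspase and apoptosome genes was 2 without 10 µM replicate 4. The number of caspase and apoptosome genes that fell was 1 without control 2, control 3 or 10 µM replicate 4, 2 without control 4 or 10 µM replicate 3, 3 on library totals alone and 3 with upper quartile scaling. Leaving out 1 library took the adjusted p over 0.05 for BMF without control 2 or 10 µM replicates 2, 3 or 4 (up to 0.0943) and CYCS without controls 2, 3 or 4 or 10 µM replicates 2 or 4 (up to 0.0996).

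Pyroptosis genes were mostly low. Of 14 gasdermin and inflammasome genes tested, 3 rose and 1 fell, with a median log2 fold change of 0.58. GSDMD (chromosome 8, 143553207 to 143563062), the pore-forming gasdermin that caspases 1, 4 and 5 cut, had 0.65, 0, 0 and 0.166 CPM in controls 1 to 4 and 0.607, 0.491 and 0.845 CPM in 10 µM replicates 2 to 4. Its groups overlapped, and it was at 1.62 (adjusted p = 0.42, 0.0273 with the replicate block), a size that is uncertain because controls 2 and 3 were at 0. GSDME (chromosome 7, 24698351 to 24758113), which caspase 3 cuts, had 0.343, 0.155, 0.508 and 0.399 CPM in controls 1 to 4 and 0.351, 0 and 1.34 CPM in 10 µM replicates 2 to 4, at 0.68 (adjusted p = 0.714). The sensor NLRP3 and the cytokine IL1B were under 0.3 CPM in all 7 libraries and were not tested. The alarmin HMGB1 (-0.99) fell, and CARD8 (0.56) rose. Among pyroptosis genes, 1 rose without 10 µM replicate 3 or 10 µM replicate 4, and the count was 5 without control 1 and 8 with the replicate block.

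The ferroptosis regulators that Lip-1 is usually discussed with moved both ways. Of 25 genes, 5 rose and 5 fell, with a median log2 fold change of 0.20. Over all genes tested, 10.9% rose and 12.0% fell, shares to set beside each list here. GPX4 (chromosome 19, 1103926 to 1106791), the peroxidase that repairs lipid peroxides, had 165, 144, 165 and 138 CPM in controls 1 to 4 and 155, 132 and 147 CPM in 10 µM replicates 2 to 4. The groups overlapped, at -0.08 (adjusted p = 0.634). SAT1, a polyamine acetyltransferase, rose by 1.48 (SE 0.126, adjusted p = 0.000507). Of 30 NRF2 targets, 6 rose and 4 fell, with a median log2 fold change of 0.09 that was -0.02 in the digit-named libraries alone, and the defining target NQO1 was at 0.16 (adjusted p = 0.243). HMOX1 was under 0.3 CPM in all 7 libraries. Of 20 iron handling genes, 4 rose and 3 fell, with a median log2 fold change of -0.10, and that median also changed sign on library totals alone. TFRC (chromosome 3, 196027183 to 196082189), the transferrin receptor, had 655, 889.8, 863 and 764 CPM in controls 1 to 4 and 1124, 1289 and 999 CPM in 10 µM replicates 2 to 4, above the controls in every 10 µM library, and rose by 0.52 (SE 0.133, adjusted p = 0.0234). FTH1 (chromosome 11, 61959718 to 61967660), the ferritin heavy chain, had 2419, 1639, 1736 and 2392 CPM in controls 1 to 4 and 1674, 1523 and 2523 CPM in 10 µM replicates 2 to 4, at -0.10 (adjusted p = 0.764). Ferroptosis genes rising numbered 8 with the replicate block and 8 on library totals alone. Counts of falling ferroptosis genes were 3 without 10 µM replicate 4 and 8 with the replicate block. The number of NRF2 target genes that fell was 2 without control 2, control 3, 10 µM replicate 3 or 10 µM replicate 4. Among iron genes, 1 rose without 10 µM replicate 3, and the count was 2 without control 4 or 10 µM replicate 2. Iron genes falling numbered 1 without 10 µM replicate 3 and 5 with the replicate block. Calls were lost, with the adjusted p over 0.05, for TFRC without control 4 or 10 µM replicates 2 or 3 (up to 0.102).

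Globin genes fell. In bulk RNA, fewer cells that express a gene and less of its RNA per cell cannot be told apart. Of 9 genes, 0 rose and 6 fell, with a median log2 fold change of -1.0. HBZ (chromosome 16, 152687 to 154503), the embryonic alpha-like globin, had 1126, 239, 347 and 849 CPM in controls 1 to 4 and 129, 88.4 and 217 CPM in 10 µM replicates 2 to 4. Controls 1 and 4 were well above controls 2 and 3, all 10 µM libraries were below all 4, and the log2 fold change was -2.14 (SE 0.552, adjusted p = 0.0246). HBG1 (chromosome 11, 5248079 to 5249859), a fetal gamma globin, had 1911, 1203, 1665 and 1948 CPM in controls 1 to 4 and 816, 1008 and 1022 CPM in 10 µM replicates 2 to 4, with a log2 fold change of -0.83 (SE 0.173, adjusted p = 0.0113). HBG2 (chromosome 11, 5253190 to 5505605), its near-identical copy, had 3594, 2144, 3304 and 3587 CPM in controls 1 to 4 and 1669, 1817 and 2125 CPM in 10 µM replicates 2 to 4, with -0.76 (SE 0.183, adjusted p = 0.0194), and reads of the pair may be split. HBA1 and HBA2, another near-identical pair, were at -1.68 and -1.64. Erythroid regulators were counted apart: of 16, 0 rose and 2 fell, near the 12.0% of all genes that fell, with a median log2 fold change of -0.14. The 2 were CITED1 (-1.99) and KLF1 (-0.70), while GATA1 was at -0.17 (adjusted p = 0.399). Of 26 red cell membrane and surface genes, 1 rose and 5 fell, with a median log2 fold change of -0.51. Of 15 megakaryocyte and platelet genes, 2 rose and 0 fell, near the 10.9% of all genes that rose. Their median log2 fold change was 0.07, and the median was -0.11 in the letter-named libraries alone. The count that rose was 4 with the replicate block or without control 1. ITGB3, a platelet integrin, and CD9 were the pair that rose, by 2.90 and 2.16. The count of falling globin genes was 2 without 10 µM replicate 2 or 10 µM replicate 3. The number of red cell genes that fell was 2 without 10 µM replicate 3, 3 without control 4, 13 with the replicate block and 3 on library totals alone. An adjusted p over 0.05 was reached by HBZ without 10 µM replicates 2 or 3 (up to 0.0922), HBG2 without control 3 or 10 µM replicates 2 or 3 (up to 0.0742), HBA1 without 10 µM replicates 2 or 3 (up to 0.0728) and HBA2 without 10 µM replicates 2 or 3 (up to 0.0853). So it did for KLF1 without controls 2 or 3 or 10 µM replicates 3 or 4 (up to 0.11).

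Among genes whose mean log2 CPM reached 1, the strongest fall was in NEFH (chromosome 22, 29480230 to 29491390), a neurofilament subunit, with 94.6, 131, 139 and 92 CPM in controls 1 to 4 and 25.9, 26.5 and 16.6 CPM in 10 µM replicates 2 to 4. Every 10 µM library was far below the lowest control, and the log2 fold change was -2.31 (SE 0.224, adjusted p = 0.000744). Among the 15 largest falls by this rule were also the growth factor gene WNT10B (-1.69), the lymphoma antigen gene TNFRSF8 (-1.51), the zinc finger gene ZNF296 (-1.55) and the tRNA methyltransferase TRMT61A (-1.42). Among the 15 largest rises were the organic anion transporter SLCO2B1 (chromosome 11, 75100563 to 75206549), with 3.4, 3.18, 2.07 and 2.55 CPM in controls 1 to 4 and 45.5, 45.9 and 27.5 CPM in 10 µM replicates 2 to 4. It was separate in all libraries and rose by 3.82 (SE 0.243, adjusted p = 0.000141). XIRP1 (5.45), an actin-binding protein of muscle, the phospholipase PLA2G3 (5.25), the lysosomal channel MCOLN3 (3.17) and the ubiquitin ligase subunit FBXO32 (3.08) were others. Genes with the smallest p also included the transporter SLCO4C1 (2.86), the calcium pump ATP2A3 (1.60), the lipid phosphatase LPIN1 (1.54) and the junction protein F11R (1.63).

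Energy metabolism leaned downward. Of 36 glycolysis and hypoxia genes, 5 rose and 15 fell, with a median log2 fold change of -0.34. The hexokinase HK2 (-1.33), the isomerase GPI (-0.79), the dehydrogenases GAPDH (-0.75) and LDHA (-0.80) and the glucose transporter SLC2A1 (-0.72) fell. NDRG1 (2.03), ENO2 (1.34), ALDOC (1.10) and the mitophagy receptor BNIP3L (1.21) rose. GAPDH, often used as a reference gene, had 3034, 3121, 3705 and 2925 CPM in controls 1 to 4 and 2212, 1819 and 1679 CPM in 10 µM replicates 2 to 4. Its 10 µM libraries were all below its controls, with a log2 fold change of -0.75 (SE 0.126, adjusted p = 0.00528). Of 47 nuclear-encoded respiratory chain subunits, 1 rose and 23 fell, with a median log2 fold change of -0.35, with NDUFB7 (-0.82), CYC1 (-0.66) and SDHB (-0.53) among the fallers. Of 31 SR and hnRNP splicing factors, 0 rose and 14 fell, with a median log2 fold change of -0.35. Among glycolysis and hypoxia genes, 2 rose without 10 µM replicate 3. Glycolysis and hypoxia genes falling numbered 7 without 10 µM replicate 3. Counts of falling respiratory chain genes were 9 without 10 µM replicate 3 or 10 µM replicate 4, 11 without control 3, 14 without control 2 or control 4 and 13 on library totals alone. The number of splicing factor genes that fell was 5 without 10 µM replicate 3, 6 without 10 µM replicate 4 and 7 without control 2 or control 3. With 1 library left out, the adjusted p passed 0.05 for LDHA without controls 2, 3 or 4 or 10 µM replicates 2, 3 or 4 (up to 0.0875), SLC2A1 without 10 µM replicate 3 (up to 0.0522), ENO2 without 10 µM replicates 3 or 4 (up to 0.0699) and BNIP3L without controls 2 or 3 or 10 µM replicates 3 or 4 (up to 0.158). Likewise affected were SDHB without 10 µM replicate 4 (up to 0.0546).

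Library names come in 2 styles, letters for controls 1 and 4 and 10 µM replicate 4, and digits for the other 4 libraries. The labels do not call this a batch. On the first principal component, the axis of largest spread among the 7 libraries (41.9%), controls 1 and 4 were at -11.2 and -0.811. Controls 2 and 3 were at 60.2 and 70.3, and 10 µM replicates 2 to 4 at -29.1, -24.9 and -64.5. Untreated libraries thus differed by style on this axis, which the test of the response below does not measure. Within the digit-named libraries 1652 genes were called higher and 1485 lower. Of these, 1640 and 1484 were also tested in the letter-named libraries, which share no sample with them, and there 93.72% and 98.45% of those genes had the same sign, against 75.58% and 81.17% of all genes higher or lower by sign. The test of the difference in response between the 2 styles passed for 9 genes (0.0682%) in edgeR, 65 in DESeq2 and 2 in limma-voom, and 751 genes had an unadjusted p under 0.05. It rests on a single letter-named library at 10 µM. JUND, an AP-1 subunit (chromosome 19, 18279760 to 18281622), had 219, 169, 153 and 189 CPM in controls 1 to 4 and 337, 269 and 2.24 CPM in 10 µM replicates 2 to 4. The 10 µM replicate 4 was far below all others while replicates 2 and 3 were above all controls, and over the 7 libraries JUND was at 0.15 (adjusted p = 0.928). CNBP, a zinc finger protein, had 148, 411, 464 and 150.5 CPM in controls 1 to 4 and 303, 346 and 312 CPM in 10 µM replicates 2 to 4, with controls 1 and 4 low and controls 2 and 3 high. TPM3, a tropomyosin, had 593, 624, 666 and 623 CPM in controls 1 to 4 and 621, 679.7 and 245 CPM in 10 µM replicates 2 to 4, lowest in replicate 4. The 9 genes also include near-identical copies of complement C4, whose reads cannot be assigned with certainty.

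**Figure D5:**
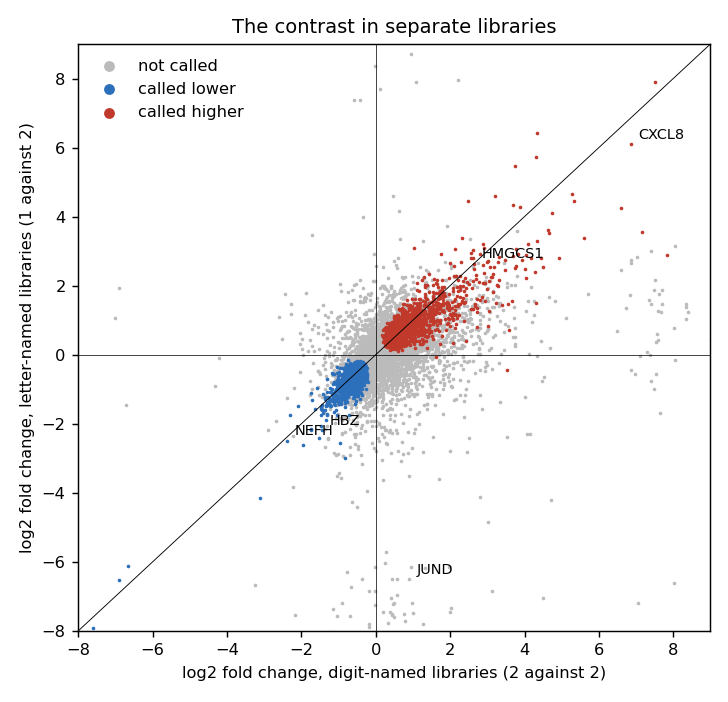
Log2 fold change of 10 µM Lip-1 over control in the 4 digit-named libraries against that in the 3 letter-named libraries, 1 point per gene for 12883 genes, coloured by the call over all 7 libraries. Called genes lie along the diagonal, which the call itself favours because it uses the libraries of both axes. JUND lies far below the diagonal, and 42 genes lie outside the axes.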

How the data were processed

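RNA-seq libraries of K562 cells were made from Trizol-extracted total RNA after probe removal of ribosomal RNA, with random primers, per the labels' protocols. The deposited values are counts per gene with 1 column for each library, per the file header, and all are whole numbers. The submitters' processing notes name bcl2fastq 2.0, HISAT2, StringTie, DESeq2, limma and hg38, with no role or order. Entries of 1 count (401) were rarer than entries of 4 (2958), so a count may not be 1 read, which tests on counts cannot see. Another 9 lines, which name no gene, were not used, and strand use in counting is not given in the sources used here.

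Counts of 7 libraries were filtered with filterByExpr, scaled by TMM and tested with edgeR 4.0.16 (R 4.3.3, glmQLFit and glmQLFTest, two-sided, Benjamini-Hochberg adjusted p under 0.05, treatment only). The SE is the log2 fold change over the root of F. Alternatives were limma 3.58.1, DESeq2 1.42.0, other scalings and filters, a replicate block, naming style, the 8-library fit, a fold of 1.5, and each library left out. The script was tested on simulated data. Total counts ran from 71151415 to 141307169. Deviations from group means of same-numbered control and 10 µM libraries correlated across genes at 0.12, 0.29 and 0.34, so replicate numbers, which come from the titles, were taken to pair libraries 2 to 4, and control 1 has no partner. The block fit therefore takes nothing from control 1 for the contrast. Differently numbered libraries of 1 naming style correlated as well, control 1 with 10 µM replicate 4 at 0.32 and control 2 with 10 µM replicate 3 at 0.23, so these correlations do not separate number from naming style.

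Coordinates are GENCODE release 29 (GRCh38), and promoters are RefSeq windows (GRCh38.p14). The RefSeq start can differ from the GENCODE bounds of a gene. The stretch of IL6 lies inside its GENCODE bounds, and those of CXCL2, CXCL8, HMGCS1 and MSMO1 overlap theirs in part. In all, 64 gene lists were described by counts and medians, without set tests. Members, lists and the rule for named genes were chosen with earlier results of these data known. The rule names, among called genes whose mean log2 CPM reached 1 and with groups that do not overlap, the 15 largest rises and 15 largest falls, a set of fixed genes, the 5 smallest p of each list, the 10 smallest p of all, the 10 largest rises and falls in mean CPM, and the 5 strongest naming-style differences each way. Some of these are not reported here. List members beyond the 5 and the printed promoters were chosen after their values were seen.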

Additional observations from a re-analysis of the deposited data

Results flagged for a closer look

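Of 206 named genes, 12 had 1 control whose gap to its nearest neighbour, divided by the range of the 4 controls, was above the 95% critical value of Dixon's test. Chance flags about 1 in 20 groups. A control stood above the rest for ADSL in control 3 (194 CPM against 170.0 to 173 CPM in the other 3, ratio 0.865), CCT7 in control 3 (936 CPM against 811 to 818 CPM in the other 3, ratio 0.95) and F11R in control 3 (45.5 CPM against 34.9 to 36.2 CPM in the other 3, ratio 0.872). Another 3 with a control above the rest were FOS in control 2 (59.1 CPM against 26.9 to 29.1 CPM in the other 3, ratio 0.934), HSPA1A in control 1 (372 CPM against 35.5 to 55.5 CPM in the other 3, ratio 0.941) and IFIT1 in control 1 (0.614 CPM against 0.165 to 0.233 CPM in the other 3, ratio 0.849). Another with a control above the rest was PES1 in control 3 (239 CPM against 216 to 218 CPM in the other 3, ratio 0.913). A control stood below the rest for APAF1 in control 1 (19.9 CPM against 23.7 to 24.4 CPM in the other 3, ratio 0.85), CARD8 in control 3 (20.9 CPM against 24.9 to 25.5 CPM in the other 3, ratio 0.877) and NPC1 in control 1 (25.4 CPM against 29.8 to 30.7 CPM in the other 3, ratio 0.847). Another 2 with a control below the rest were PPAN in control 1 (31.7 CPM against 131 to 140.3 CPM in the other 3, ratio 0.915) and TRMT61A in control 2 (50.8 CPM against 65.5 to 67.4 CPM in the other 3, ratio 0.884).

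The response differed between letter-named and digit-named libraries for CNBP (log2 difference 1.5, SE 0.177, adjusted p = 0.0491), JUND (log2 difference -7.42, SE 0.287, adjusted p = 9.19e-05) and TPM3 (log2 difference -1.33, SE 0.158, adjusted p = 0.0491), by edgeR's test of the interaction. A single 10 µM library is letter-named, and it alone sets the response on that side.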

How the results depend on the processing

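The 3021 called genes (1435 higher, 1586 lower) became 1485 to 2981 (696 to 1439 higher, 781 to 1619 lower) when 1 library at a time was left out, lowest without 10 µM replicate 3, and 1048 lower without control 2. They were 4806 (2401 and 2405) with the naming style as a term, 1279 (609 and 670) in letter-named libraries alone, and 227 (178 and 49) against a fold of 1.5. Of the 3021 genes, 1238 (588 higher, 650 lower) stayed called in all 7 fits with 1 library left out, and none changed direction in them. Scaling by totals alone, added after the data were seen, gave 2172 higher and 1057 lower. Other scalings, filters, DESeq2, limma-voom, the digit-named libraries alone and the fit with 20 µM as a further level gave 2780 to 3816 called genes, and genes with a different response by naming style numbered 9, 65 by DESeq2 and 2 by limma-voom. The cause of these shifts was not tested. With the replicate number as a block, 4484 genes were called (2265 higher, 2219 lower), 2902 of them also called without the block, and none of the 179 called genes named here lost its call. Of those 179, calls were lost for 0 under relative log expression scaling, 0 under upper quartile scaling, 4 in limma-voom, 3 on totals alone, 6 and 26 in digit-named and letter-named libraries alone, 109 against a fold of 1.5, and 1 to 37 with 1 library left out, and none changed sign under any alternative run. Genes that did not pass over the 7 libraries changed sign as follows on the log2 scale, with the adjusted p where an alternative called the gene. ACACA (0.21) was -0.035 in letter-named libraries alone and CCND1 (0.19) was -0.044 in digit-named libraries alone. CNBP (0.13) was -0.45 in digit-named libraries alone (adjusted p = 0.0293) and -0.094 to 0.45 with 1 library left out and FTH1 (-0.10) was 0.065 in letter-named libraries alone, 0.036 on totals alone and -0.36 to 0.036 with 1 library left out. GPX4 (-0.081) was 0.053 on totals alone and GSDME (0.68) was -1.09 in limma-voom, -0.004 with the replicate block, -0.93 in digit-named libraries alone and -1.0 to 1.27 with 1 library left out. HSPA5 (0.13) was -0.20 in digit-named libraries alone and JUND (0.15) was -1.66 in limma-voom, -0.59 with the replicate block, -0.61 with naming style as a term, -6.51 in letter-named libraries alone (adjusted p = 0.00285) and -0.43 to 0.73 with 1 library left out. PMVK (-0.074) was 0.058 on totals alone and TPM3 (-0.28) was -0.53 to 0.052 with 1 library left out. Depth of 71151415 counts or more per library left genes under the filter, such as ABCA1, NLRP3 and HMOX1, without a test. The numbers of libraries, 3 and 4, limit what small changes can pass.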
